A study of Homo sapiens with 12 samples.

Results

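The set described here holds the regions of trimethylated lysine 27 of histone 3 (H3K27me3) found at promoters of intergenic long non-coding RNA (lncRNA) genes in Tau expressing human SH-SY5Y neuroblastoma cells. Peaks of both Tau expressing (WT) replicates were merged to intervals where they shared at least 1 bp. An interval was a member when it was autosomal, under 20 kb wide and held a peak of each WT list, overlapped the 1 kb on each side of an annotated lncRNA transcription start site (TSS), and overlapped no protein-coding gene extended by 1 kb. This gave 2704 members among the 102781 autosomal intervals under 20 kb with peaks in both WT lists, and among 103326 such intervals of any width. The members stood at 1756 of 18390 autosomal lncRNA genes of the annotation. Since presence in both WT lists chose the members, nothing about WT presence is a result, and a member could only be kept or missed in the knock-out cells.

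SH-SY5Y is an established neuroblastoma line. H3K27me3 ChIP-seq was done on WT cells and on the SH-SY5Y lines 231K and 232P, which are knocked out for MAPT, the gene that encodes Tau (Tau-KO), with 2 replicates of each of the 3 genotypes and no treatment. Each Tau-KO genotype was a single cell line made by CRISPR-Cas9, so that an effect of the knock-out and a property of the line cannot be told apart. Every peak of both 232P lists carries a name that starts with 231P, and 231P is also a Tau-depleted line of the study. The labels were followed, and which of these lines the lists come from was not tested. No list held a peak within 1 kb of MAPT, so the peaks gave no check of the knock-out itself.

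H3K27me3 is placed by the Polycomb Repressive Complex 2 (PRC2), in which EZH2 is the catalytic subunit and SUZ12 and EED are core partners. The mark covers genes that are kept silent, above all developmental regulators, and in mammals PRC2 is often found at CpG-rich promoters of such genes. lncRNAs are transcripts without a long open reading frame, and many are transcribed next to developmental transcription factor genes in the same tissues as their neighbour. Some, such as HOTAIR of the HOXC cluster, have been described to bind PRC2, and others host microRNAs.

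The sequence under the mark is shown for 7 members, as 300 bases of hg38 centred on the summit of the strongest peak in WT replicate 1, plus strand, with each CG dinucleotide in capitals. The first 4 are the highest ranking members in WT, among them neighbours of the HOXB cluster and of SHH. They lie at chr17:48735142-48735441 (ENSG00000242407), chr7:155952158-155952457 (ENSG00000204876), chr14:19678019-19678318 (ENSG00000259069) and chr17:48643181-48643480 (LINC02086).
ENSG00000242407: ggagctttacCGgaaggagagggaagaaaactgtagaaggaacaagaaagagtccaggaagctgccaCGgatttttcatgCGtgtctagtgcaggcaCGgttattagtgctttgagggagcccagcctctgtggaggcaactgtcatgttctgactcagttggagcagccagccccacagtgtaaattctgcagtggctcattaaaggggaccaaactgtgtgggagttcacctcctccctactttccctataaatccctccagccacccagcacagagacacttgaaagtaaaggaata
ENSG00000204876: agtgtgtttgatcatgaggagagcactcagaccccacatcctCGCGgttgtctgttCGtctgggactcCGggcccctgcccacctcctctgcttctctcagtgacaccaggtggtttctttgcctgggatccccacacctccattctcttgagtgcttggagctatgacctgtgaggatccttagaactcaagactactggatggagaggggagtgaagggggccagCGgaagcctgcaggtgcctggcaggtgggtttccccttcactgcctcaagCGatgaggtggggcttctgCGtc
ENSG00000259069: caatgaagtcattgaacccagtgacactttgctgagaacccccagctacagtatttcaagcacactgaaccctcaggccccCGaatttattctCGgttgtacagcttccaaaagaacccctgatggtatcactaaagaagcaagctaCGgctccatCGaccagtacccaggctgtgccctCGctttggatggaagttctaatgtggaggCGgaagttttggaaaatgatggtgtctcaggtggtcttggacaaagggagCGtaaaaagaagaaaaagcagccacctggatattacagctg
LINC02086: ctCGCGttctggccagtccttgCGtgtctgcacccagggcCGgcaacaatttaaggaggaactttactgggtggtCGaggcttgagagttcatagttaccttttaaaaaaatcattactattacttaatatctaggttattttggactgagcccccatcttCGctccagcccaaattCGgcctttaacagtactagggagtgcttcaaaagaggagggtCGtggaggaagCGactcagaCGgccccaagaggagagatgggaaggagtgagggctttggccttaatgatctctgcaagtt

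The other 3 are the highest ranking members of those kept in 1 Tau-KO line only or in none, and are shown beside the first set because they are the members whose mark was missed. HLA-V (chr6:29791415-29791714) had no peak in the 232P lists, ENSG00000260496 (chr16:1001507-1001806) none in the 231K lists, and ENSG00000260402 (chr16:32266044-32266343) none in any Tau-KO list.
HLA-V: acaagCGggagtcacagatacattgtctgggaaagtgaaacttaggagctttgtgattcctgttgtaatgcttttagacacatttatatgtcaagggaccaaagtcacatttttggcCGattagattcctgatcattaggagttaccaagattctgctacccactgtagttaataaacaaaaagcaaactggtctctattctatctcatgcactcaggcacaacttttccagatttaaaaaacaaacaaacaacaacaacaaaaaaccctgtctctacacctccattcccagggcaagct
ENSG00000260496: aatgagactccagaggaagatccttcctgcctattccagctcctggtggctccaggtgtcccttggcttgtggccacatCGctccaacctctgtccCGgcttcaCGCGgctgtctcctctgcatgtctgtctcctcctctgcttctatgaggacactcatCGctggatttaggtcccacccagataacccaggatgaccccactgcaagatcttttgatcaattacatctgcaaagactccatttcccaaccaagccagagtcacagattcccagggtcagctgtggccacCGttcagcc
ENSG00000260402: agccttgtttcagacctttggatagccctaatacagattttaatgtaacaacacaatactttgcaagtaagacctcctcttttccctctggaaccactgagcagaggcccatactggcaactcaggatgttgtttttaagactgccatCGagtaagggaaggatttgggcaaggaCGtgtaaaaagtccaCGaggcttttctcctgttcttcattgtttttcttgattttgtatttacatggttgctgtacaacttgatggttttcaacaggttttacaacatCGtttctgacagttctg

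Each of the 7 windows held fewer CG dinucleotides than expected from its content of C and G. The LINC02086 window held 10 CG dinucleotides, the most of these 7, and HLA-V held 2. The ratio of observed to expected CG was 0.563 for LINC02086, 0.400 for ENSG00000259069, 0.275 for ENSG00000204876 and 0.211 for ENSG00000242407. It was 0.317 for ENSG00000260402, 0.285 for ENSG00000260496 and 0.176 for HLA-V, so that the kept and the missed members overlapped in this measure. The median ratio over all members was 0.205, and of these 7 windows only that of HLA-V lay below it. Not all windows are unique in hg38, since that of ENSG00000259069 had 3 near-identical copies elsewhere and that of ENSG00000260402 had 5.

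The 6 peak lists differed in length and depth. WT replicates 1 and 2 held 285826 and 222191 peaks, 231K held 271413 and 212347, and 232P held 147118 and 199677. Each of these lists is longer than the range of peak counts that the paper states for its 6 samples. The reason for this difference was not tested. The number of reads is not part of the lists. The background level recovered from the peaks put the depth of WT replicate 2 at 66.6% of that of WT replicate 1, 231K at 94.8% and 68.7%, and 232P at 68.1% and 56.9%. Both 232P lists came from libraries of lower depth than WT replicate 1, and 232P replicate 1 was the shortest list although it was not the shallowest. A peak missing from a list thus means that none passed the threshold at that depth, not that the mark was absent.

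Most members kept a peak in the Tau-KO cells. Of the 2704 members, 2391 (88.4%) and 2491 (92.1%) had a peak in the 231K replicates 1 and 2, and 1775 (65.6%) and 2232 (82.5%) in those of 232P. A peak in all 6 lists was found for 1591 members (58.8%), beside 39.9% of all 102781 intervals. No peak in either 231K list was found for 111 members (4.11%), beside 7.31% of all intervals, and no peak in either 232P list for 325 members (12.02%), beside 18.4%. A total of 72 members (2.66%) had no peak in any of the 4 Tau-KO lists, beside 4.42% of all intervals. All these shares are relative to the same WT lists that chose the intervals, and they are given as a description. Counts of missed members rested on single lists. Without 231K replicate 1, 213 members (7.88%) had no 231K peak, beside 12.9% of all intervals, and without replicate 2 313 (11.6%), beside 20.6%. Without 232P replicate 1, 472 (17.5%) had no 232P peak, beside 23.5%, and without replicate 2 929 (34.4%), beside 52.6%. With WT replicate 2 alone selecting, 451 (12.3%) had none in 231K, beside 19.1%, and 826 (22.6%) none in 232P, beside 33.8%. With WT replicate 1 alone selecting, these were 613 (14.2%), beside 18.3%, and 1127 (26.1%), beside 33.2%.

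Counted by gene, 1249 of the 1756 lncRNA genes (71.1%) had at least 1 member with a peak in all 6 lists. At 55 genes (3.13%) none of the members had a peak in 231K, and at 145 genes (8.26%) none had one in 232P. At 38 genes (2.16%) none had one in any Tau-KO list. No such count was made for other genes, and a gene with several members is missed only when all of them are. The shares by gene are therefore a description and cannot be set beside the shares of intervals. A single member was found at 1051 genes and more than 1 at 705. Members of 1 gene share a locus and are not independent of each other.

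The 231K lists held on average 2441 ± 70.7 members with a peak and the 232P lists 2003.5 ± 323 (SD, n = 2 each). The difference of 437.5 members had the same direction in both replicate numbers, with 616 in replicate 1 and 259 in replicate 2. By an exact permutation test over the samples (two-sided) p was 0.333, which is the smallest value that 2 against 2 samples can give, so the design cannot reach 0.05. The part of a member that was covered by peaks also differed in this direction. Peaks covered 61.9% ± 12.9 of a member on average in 231K and 37.0% ± 18.9 in 232P, where replicate 1 gave 23.6% and replicate 2 gave 50.4% (exact permutation p = 0.333). The values of 231K were 52.8% and 71.1%, so that the groups did not overlap but lay close together. With an equal number of strongest peaks from each list the difference was 154.5 members, and with all lists scaled to equal depth it was 292, in the same direction as before. Without 232P replicate 1, the shortest list, it was 209 members, and without 232P replicate 2 it was 666. It was 805 with WT replicate 1 alone as the selecting list, and 876 when peaks had to cover 50% of a member. Within each line, the deeper replicate 1 had fewer members and less cover than replicate 2. The fragment length recovered from the lists was 179, 179 and 175 bp in replicates 1 of WT, 231K and 232P and 244, 240 and 262 bp in replicates 2, and its part in the result was not tested.

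**Figure D1:**
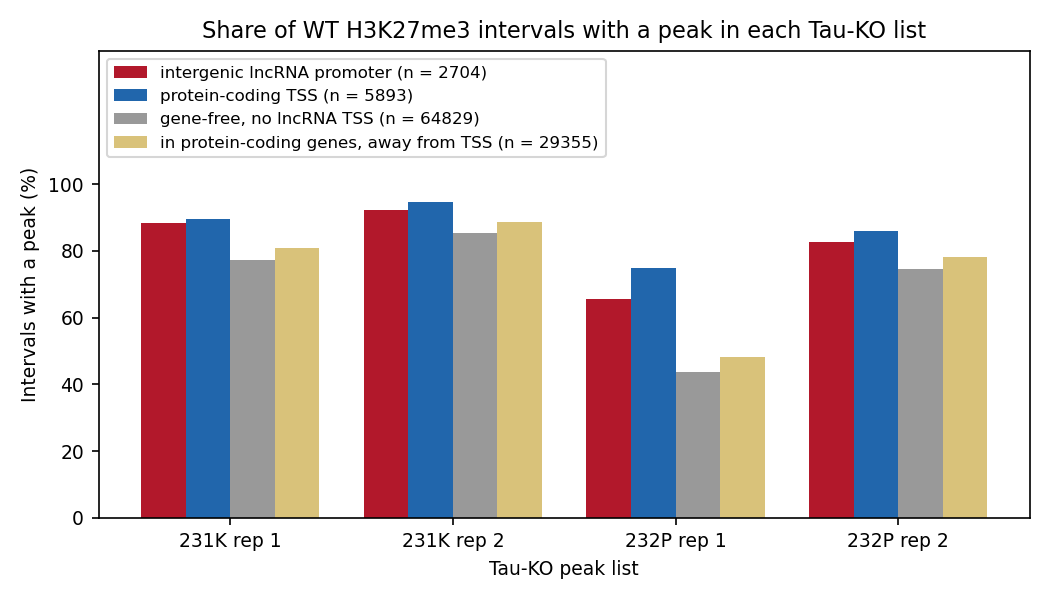
Share of intervals (y axis, %) with a peak in each of the 4 Tau-KO lists (x axis) for 4 classes of intervals chosen on the same 2 WT lists; bars show the value of 1 list each, without error bars. In every list the bar of lncRNA promoters lies above that of gene-free intervals and below that of protein-coding TSS, and all bars are lowest in 232P replicate 1.

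The 16 possible patterns over the 4 Tau-KO lists were all found. After presence in all lists, the most frequent pattern was a peak in all but 232P replicate 1, with 471 members (17.4%, beside 23.8% of all intervals). A peak in both 231K lists and no 232P list was found for 138 members (5.10%, beside 6.87% of all intervals). The reverse, a peak in both 232P lists and no 231K list, was found for 3 members (0.111%, beside 0.235%). The more Tau-KO lists held a member, the wider it was and the higher it ranked in WT. The median width was 535.5 bp for the 72 members in none of the lists, 677 bp with 1 list, 886.5 bp with 2, 1359.5 bp with 3 and 3990 bp with all 4.

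**Figure D2:**
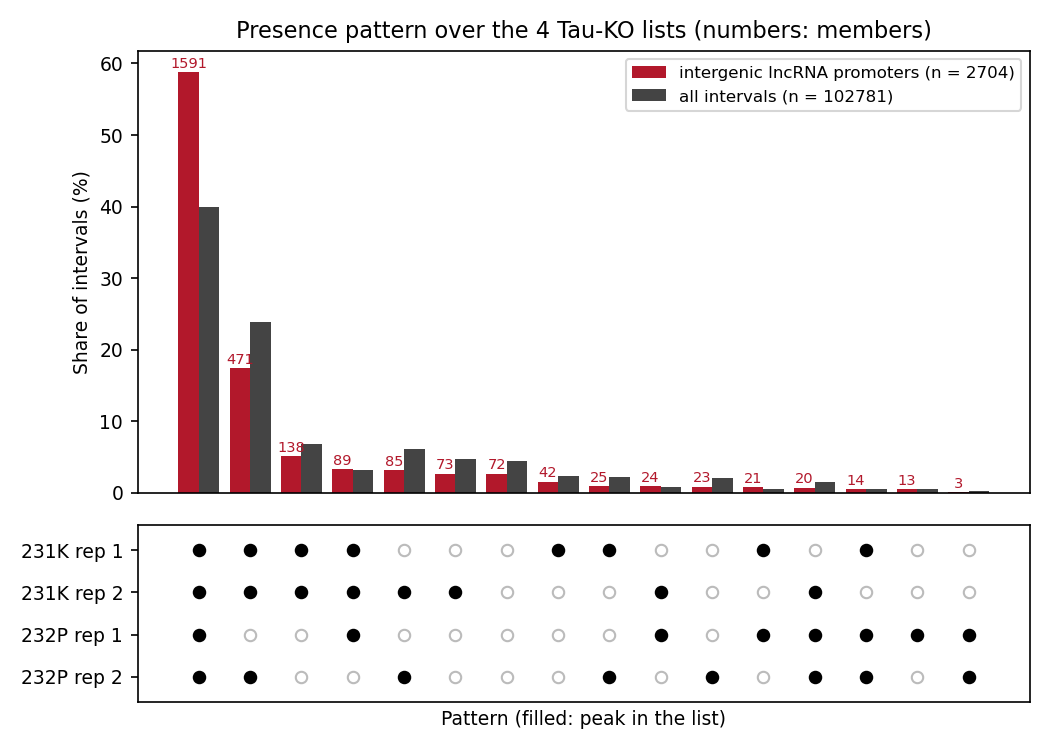
Share of intervals (y axis, %) for each pattern of presence over the 4 Tau-KO lists (filled circles mark a peak in the list), for the 2704 members and for all 102781 intervals; red figures give the number of members. Presence in all 4 lists holds 1591 members, and the next pattern, missing in 232P replicate 1 alone, holds 471.

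Members were wider than gene-free intervals and narrower than those at protein-coding TSS. Their median width was 2205.5 bp (quartiles 1046.75 and 4756 bp), against 1297 bp for the 64829 gene-free intervals without a lncRNA TSS, 2387 bp for the 5893 intervals at protein-coding TSS and 1383 bp for all intervals. Width is tied to the search for an overlap, since a wide interval meets a TSS window, and a peak of another list, more often. The share missed was therefore read by width. Among the 642 members under 1 kb, 14.2% had no peak in 231K and 35.8% none in 232P. Of all intervals of this width, 17.8% and 38.2% were missed. The shares were 3.26% and 13.4% for 614 members of 1 to 2 kb, beside 3.65% and 15.4% of all intervals, and 0 and 1.60% for 811 members of 2 to 5 kb, beside 0.205% and 2.00%. All 637 members of 5 kb or more had a peak in at least 1 list of each Tau-KO line, and 98.7% of these had one in all 6 lists, beside 98.1% of all intervals of this width.

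**Figure D3:**
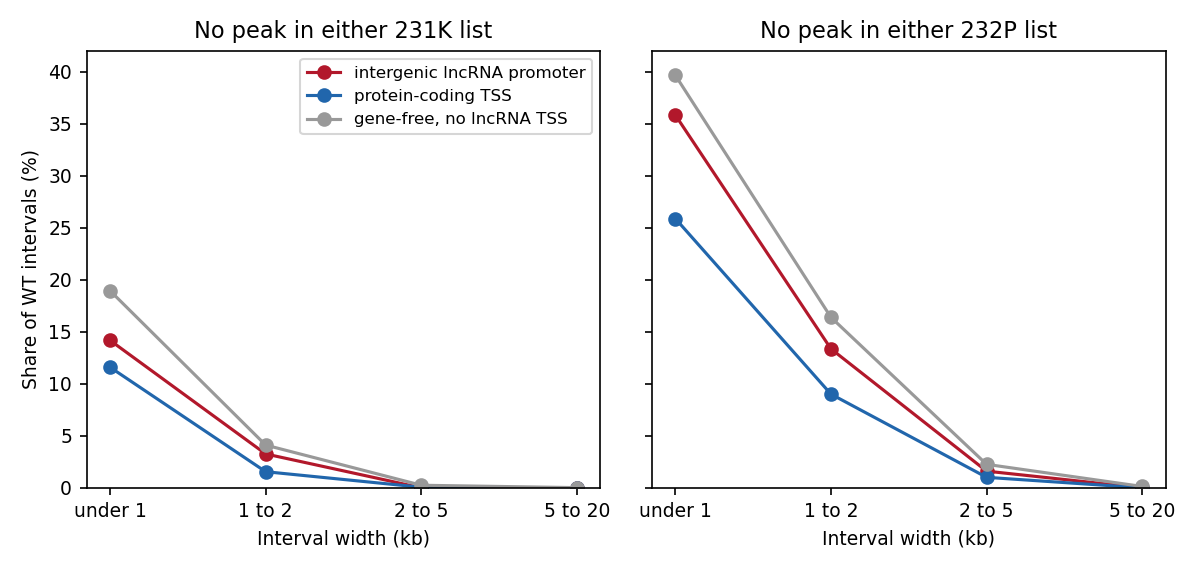
Share of WT intervals (y axis, %) with no peak in either list of 231K (left) and of 232P (right) by interval width (x axis, kb), for 3 classes of intervals. Points are shares over all intervals of a class and width, without error bars; among intervals under 1 kb, lncRNA promoters lie at 14.2% and 35.8%, between protein-coding TSS at 11.6% and 25.9% and gene-free intervals at 18.9% and 39.6%.

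All these classes were chosen on the same WT lists, so that the difference between classes within a Tau-KO list can be compared over the 4 lists. The 4 lists are 2 replicates each of 2 lines and are judged on the same intervals. A direction shared by 4 lists is thus not 4 independent results. Members had a peak more often than gene-free intervals by 11.1 and 6.70 percentage points in 231K and by 21.9 and 7.93 in 232P. The mean difference was 11.9 ± 6.92 points (SD, n = 4 lists; higher in 4 of 4), with p = 0.13 by an exact permutation of signs (two-sided), the smallest value 4 lists can give. Members had a peak less often than intervals at protein-coding TSS by a mean difference of -4.14 ± 3.56 points, lower in 4 of 4 lists (exact p = 0.13). By width, this difference was -5.93 ± 6.45 points under 1 kb and -5.55 ± 5.26 points for 1 to 2 kb (lower in 4 of 4 lists each, exact p = 0.13). It was -1.22 ± 2.00 points for 2 to 5 kb, with 1 of 4 lists higher (exact p = 0.375), and -0.085 ± 0.216 points above that (exact p = 1). At a given width the difference to gene-free intervals was smaller. It was 5.53 ± 6.18 points under 1 kb, where 232P replicate 2 went the other way with -2.92 points (exact p = 0.25), 5.10 ± 4.02 points for 1 to 2 kb, 2.93 ± 3.96 points for 2 to 5 kb and 0.310 ± 0.438 points above that (exact p = 0.13 each).

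The strength of the mark in WT moved with presence in the same way. A rank was given to each interval as the lower of the percentiles of its strongest peak in the 2 WT lists, by -log10 q-value. The median rank was 71.7 for members, 80.1 for protein-coding TSS, 46.7 for gene-free intervals and 51.6 for all intervals, and 48.3% of members fell in the strongest of 4 bands of rank of about equal size. Within these bands, members were not missed less often than all intervals throughout. In the second weakest band they were missed in 9.48% in 231K and 25.2% in 232P, beside 8.98% and 24.9% of all intervals. In the weakest band, 13.2% and 35.6% of members were missed in 231K and 232P, beside 17.4% and 37.0% of all intervals, and in the strongest band 0.306% and 1.07%, beside 0.348% and 1.74%.

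The 8 highest ranking members lay near HOXB13, SHH, HOXB7, EN2 and OR11H2, at distances of up to 126 kb. All but that near OR11H2 lay on chromosomes 7 and 17. Members on these chromosomes ranked high in WT as a whole, with a median of 87.0 on chromosome 7 and 84.9 on chromosome 17. The median was 71.7 over all members, and chromosome 19 reached 87.3. The rank rests on the q-value, and the part of DNA copy number in it was not tested. The highest ranking member (chr17:48733592-48747412, 13821 bp) was found at ENSG00000242407, 4.84 kb from HOXB13, the most posterior gene of the HOXB cluster. The fold enrichment of its strongest peak over local background was 12.02 and 11.1 in WT, 13.6 and 11.9 in 231K, and 8.999 and 9.32 in 232P. The 232P values lay below both WT values, while those of 231K overlapped with WT. The next member (chr7:155938659-155953698) covered the start of ENSG00000204876, 126 kb from SHH, the morphogen of the ventral neural tube, with its summit in an exon 278 bp from the TSS. Its fold enrichment was 11.1 and 12.1 in WT, 8.33 and 9.96 in 231K, and 5.49 and 8.57 in 232P. Here both Tau-KO lines lay below WT in all lists.

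Also within the HOXB cluster, the member upstream of LINC02086 (chr17:48642909-48646232, 9.34 kb from HOXB7) gave a fold enrichment of 10.3 and 13.0 in WT, 12.9 and 14.6 in 231K, and 5.55 and 7.17 in 232P. It was low in 232P only, as seen for the HOXB13 neighbour. The adjoining member in an intron of LINC03057 (chr17:48636823-48642475) gave 9.83 and 10.5 in WT, 6.55 and 9.02 in 231K, and 7.08 and 6.51 in 232P, with both lines below WT. HOXB genes give cells their position along the body axis. The remaining 3 of the 8 highest ranking members lay 54.1 to 76.5 kb from EN2, a homeobox gene of the midbrain and hindbrain, at LINC03010 (2 members) and ENSG00000260426. Their fold enrichment was between 8.78 and 13.0 in WT, between 6.84 and 14.5 in 231K and between 6.24 and 9.02 in 232P. ENSG00000259069 (chr14:19677973-19681949), near the olfactory receptor gene OR11H2, was the exception among these 8. Its fold enrichment was 8.82 and 13.0 in WT, 7.98 and 8.56 in 231K, and 5.49 and 9.35 in 232P, and its window has copies elsewhere. These members were picked for high WT values, so that lower values in the other lists are no test. All of the 100 highest ranking members had a peak in all 6 lists, and 27 of them had a developmental transcription factor gene as their nearest protein-coding gene. The median width of these 100 was 9835.5 bp. Of all intervals of 5 to 20 kb, 98.1% had a peak in all 6 lists.

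**Figure D4:**
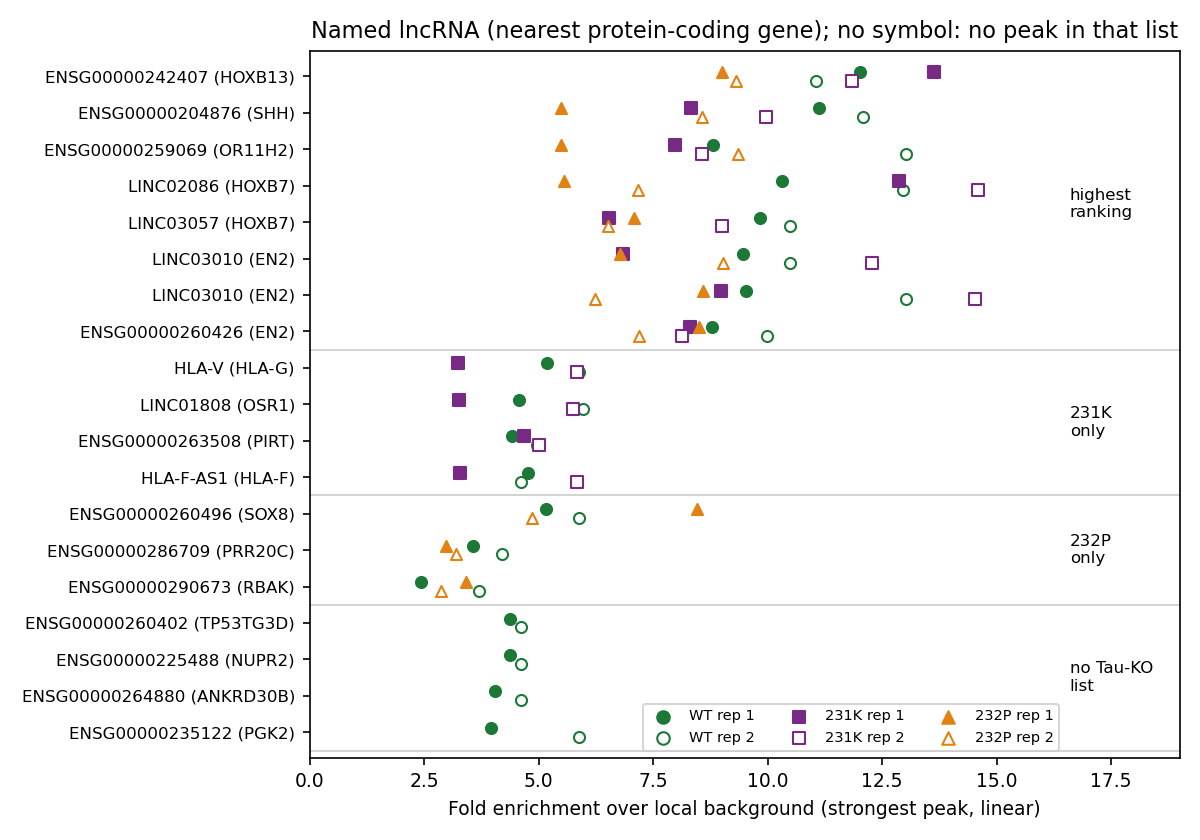
Fold enrichment of the strongest peak over local background (x axis, linear scale) for 19 named members (rows, with the nearest protein-coding gene in brackets) in each of the 6 lists; filled symbols are replicate 1, open symbols replicate 2, and no symbol means no peak. The highest ranking members have all 6 symbols, while those of the lower blocks lack the 232P, the 231K or all Tau-KO symbols by the way they were chosen.

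Over all members, 327 (12.1%) had a developmental transcription factor gene nearest, beside 6.20% of all intervals, 7.68% of gene-free intervals and 6.02% of intervals at protein-coding TSS. These members concerned 85 of 358 such genes. The list of factors was made by symbol and covers the HOX, SOX, FOX, PAX, IRX, LHX and similar families. Of the 327, 74.6% had a peak in all 6 lists and 5.50% none in 232P, against 56.7% and 12.9% for the other 2377 members. They were also wider, with a median of 2939 bp against 2151 bp, and ranked higher in WT, with a median of 87.3 against 67.5. The share without a peak in 231K was 3.67% and 4.16%.

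NR2F2, an orphan nuclear receptor of neural crest and mesenchyme, had 30 members around it, of which 22 had a peak in all 6 lists. The strongest by WT replicate 1 stood at ENSG00000259275 (chr15:96368591-96379382), with a fold enrichment of 11.5 and 6.73 in WT, 6.56 and 6.67 in 231K, and 6.71 and 6.18 in 232P. WT replicate 1 alone was high here, and WT replicate 2 was close to the highest Tau-KO values. NR2F2-AS1, the antisense lncRNA of the gene, had a member at chr15:96282534-96291508 with 6.69 and 6.73 in WT, 9.02 and 7.50 in 231K, and 5.47 and 7.50 in 232P. The 231K values lay above both WT values, and those of 232P on both sides of WT. The median fold enrichment over all members with a peak was also higher in 231K, at 4.92 and 5.68 against 4.41 and 4.88 in WT. FOXF1 (13 members, 10 in all 6 lists), IRX1 (12 and 9), FOXA2 (11 and 8) and SOX1 (10 and 9) were of the same kind. NR2F2 and the other factors of this paragraph were singled out after their values were seen.

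Of 64 lncRNAs listed for their role in development, the nervous system or cancer, 59 were annotated and 15 had members, at 36 intervals. A peak in all 6 lists was found for 25 of the 36 (69.4%), beside 58.8% of all members and 39.9% of all intervals. FENDRR, transcribed divergently from FOXF1 and needed for heart and body wall formation, had 5 members. The strongest of these (chr16:86499164-86505449, in an intron, 5.08 kb from FOXF1) stood at a fold enrichment of 8.34 and 9.25 in WT, 10.2 and 10.0 in 231K, and 8.45 and 6.18 in 232P. The 231K values lay above WT and those of 232P overlapped with WT or lay below. HOTAIR (chr12:53963843-53966647, in an intron, 6.48 kb from HOXC11) had 7.54 and 7.33 in WT, 9.84 and 8.47 in 231K, and 7.27 and 5.27 in 232P. As at FENDRR, 231K lay above both WT values, but at HOTAIR both 232P values lay below WT. Over all members with a peak the median was also higher in 231K, at 4.92 and 5.68, than in WT, at 4.41 and 4.88. The higher 231K values at FENDRR and HOTAIR thus do not show a change particular to these loci. GATA6-AS1 (chr18:22158970-22164992), divergent from the endoderm factor GATA6, had 9.53 and 7.57 in WT, 9.02 and 7.92 in 231K, and 6.71 and 5.83 in 232P, with 231K within the WT values.

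Of the 5 members at FENDRR, 3 had a peak in all 6 lists, and those at chr16:86498099-86498516 and chr16:86509022-86509428 had none in 232P replicate 2. LINC00261, which lies beside the endoderm factor FOXA2, had 3 members and LHX1-DT, divergent from LHX1, had 2, all with a peak in every list. Their fold enrichment ranged from 5.19 to 7.94 in WT, from 3.25 to 8.38 in 231K and from 4.41 to 7.94 in 232P.

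Of the listed genes with members, 3 are hosts of microRNAs by their name. MIR124-2HG hosts a microRNA of neurons that represses non-neuronal transcripts, and 3 of its 4 members had a peak in all 6 lists. The widest (chr8:64374050-64376990, 2941 bp) gave 7.15 and 5.30 in WT, 3.54 and 9.59 in 231K, and 5.97 and 7.50 in 232P, so that replicates of 231K lay on both sides of WT. The narrowest (chr8:64377198-64377718) had 2.74 and 4.20 in WT, 2.89 in 231K replicate 1 and 5.97 in 232P replicate 1, and no peak in both replicates 2. All 4 members at MIR31HG, on chromosome 9 next to the interferon genes, had a peak in all 6 lists, as did that at MIR34AHG, which hosts a microRNA target of P53. MIR34AHG (chr1:9199569-9203580) gave 5.53 and 7.33 in WT, 3.61 and 8.34 in 231K, and 6.71 and 7.50 in 232P, and all groups overlapped.

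Among lncRNAs described in tumors, UCA1 and PTCSC3 kept all members, 1 and 4, in all 6 lists. UCA1 (chr19:15823307-15836298) had 7.54 and 8.41 in WT, 7.79 and 8.34 in 231K, and 6.23 and 6.18 in 232P, with 232P below the others. LINC00520 was low in 232P. Its 3 members had a peak in both 231K lists and none in 232P replicate 1, and the member at chr14:55796066-55797616, with 3.48 and 4.25 in WT and 4.33 and 5.42 in 231K, had none in either 232P list. LINC00461, a brain lncRNA beside MEF2C, and PCAT1 also had no peak at either of their 2 members in 232P replicate 1, a list in which 34.4% of all members had none. LINC00511 (chr17:72591011-72591489) had 3.96 and 2.89 in WT and 3.91 in 232P replicate 1, and was the 1 listed member with no peak in 231K.

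The members missed in 1 line were weaker. The highest ranking of the 138 kept in 231K and missed in 232P was that at HLA-V, a class I pseudogene locus of the major histocompatibility complex (chr6:29788782-29791990). Its fold enrichment was 5.18 and 5.88 in WT, 3.25 and 5.84 in 231K, and no peak was called in 232P. HLA-F-AS1 (chr6:29747907-29748311) of the same complex was missed in 232P too, with 4.76 and 4.61 in WT and 3.28 and 5.84 in 231K. Both genes had a second member with a peak in 1 of the 232P lists. That of HLA-V (chr6:29793137-29794629) gave 4.76 and 7.57 in WT and 6.71 in 232P replicate 1, and that of HLA-F-AS1 (chr6:29749528-29751696) gave 5.56 and 5.46 in WT and 3.21 in 232P replicate 2. LINC01808 (chr2:19479003-19481903), 120 kb from the transcription factor gene OSR1, gave 4.57 and 5.98 in WT and 3.27 and 5.76 in 231K. The remaining of the 4 highest ranking, ENSG00000263508 (chr17:10848626-10850446, 10.5 kb from PIRT), gave 4.42 and 4.96 in WT and 4.69 and 5.00 in 231K. In 231K replicate 1 the missed members at HLA-V, HLA-F-AS1 and LINC01808 lay below both of their WT values, while ENSG00000263508 lay between its WT values.

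The 3 members kept in 232P and missed in 231K were ENSG00000260496, ENSG00000286709 and ENSG00000290673. ENSG00000260496 (chr16:1001342-1001963, 19.3 kb from SOX8, a factor of neural crest and glia) reached a fold enrichment of 5.16 and 5.88 in WT and 8.45 and 4.86 in 232P. The 232P values lay on both sides of WT. Of the 72 members missed in all 4 Tau-KO lists, the highest ranking were ENSG00000260402 (chr16:32266115-32266567) with 4.37 and 4.62 in WT, ENSG00000225488 (chr7:56484478-56486135) with 4.37 and 4.62, ENSG00000264880 (chr18:15164161-15165143) with 4.05 and 4.62, and ENSG00000235122 (chr6:49788296-49788915) with 3.97 and 5.88. These values were close to the median fold enrichment over all members in WT, of 4.41 in replicate 1 and 4.88 in replicate 2.

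The study lists genes upregulated in Tau-KO cells from its transcriptome data. Of these, 7 were lncRNA genes of the annotation and none of them had a member. For 82 members the nearest protein-coding gene, 35 genes in all, was on that list, and 51 of the 82 (62.2%) had a peak in all 6 lists, beside 58.8% of all members. In 231K 4 (4.88%) had no peak, beside 4.11% of all members, and in 232P 4 (4.88%) had none, beside 12.02%.

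By name, 1562 members stood at genes with an identifier alone, 746 at LINC genes, 126 at antisense genes, 36 at divergent genes, 31 at microRNA hosts and 203 at other symbols. The share with a peak in all 6 lists lay between 57.8% for LINC genes and 66.7% for divergent genes. Position along the gene separated members more. The 1417 members that covered a TSS base had a peak in all 6 lists in 69.8% and none in 232P in 7.27%, against 46.8% and 17.2% of the 1287 that only reached into the 1 kb window. They were also wider, with a median of 3376 bp against 1419 bp.

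Distance to protein-coding genes moved with presence to a lesser extent. Of the 135 members under 5 kb from a protein-coding TSS, 69.6% had a peak in all 6 lists, against 54.6% of the 1395 members over 100 kb away, and their median rank in WT was 82.2 against 65.0. The genes with the most members were LINC01013 with 14, LINC01320 with 13 and PWRN1 with 12. PWRN1, of the imprinted Prader-Willi region of chromosome 15, had the lowest share kept of these 3. Of its 12 members, 2 had a peak in all 6 lists, 3 had none in 231K and 6 had none in 232P. LINC00923 with 11 members had 8 in all 6 lists, and none was missed in either line.

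The windows of 300 bases at the WT summits were poor in CpG. Their median GC content was 44.3% and their ratio of observed to expected CpG 0.205, against 0.223 at protein-coding TSS intervals and 0.172 in gene-free intervals. Only 28 members (1.04%) had a CpG-rich summit window (GC of at least 50% and a ratio of at least 0.6), beside 0.595% of all intervals. The window centred on the lncRNA TSS itself was CpG-rich in 288 members (10.7%), with a median ratio of 0.245. The 2 windows differ, for instance, at LINC03010, whose TSS had a ratio of 1.17 while the summits of its 2 highest ranking members had 0.365 and 0.349. Members with a CpG-rich TSS had a peak in all 6 lists in 67.7% and none in 232P in 7.99%, against 57.8% and 12.5% of the others. They had a developmental transcription factor gene nearest in 24.0% against 10.7%. For the 28 members with a CpG-rich summit window these shares were 60.7% in all 6 lists and 0 missed in 232P, against 58.8% and 12.1%. Over all intervals, those with a CpG-rich summit window had a peak in all 6 lists in 45.6%, against 39.9% of the others. They were missed more often in 231K, with 9.64% against 7.29%, and less often in 232P, with 13.1% against 18.4%.

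**Figure D5:**
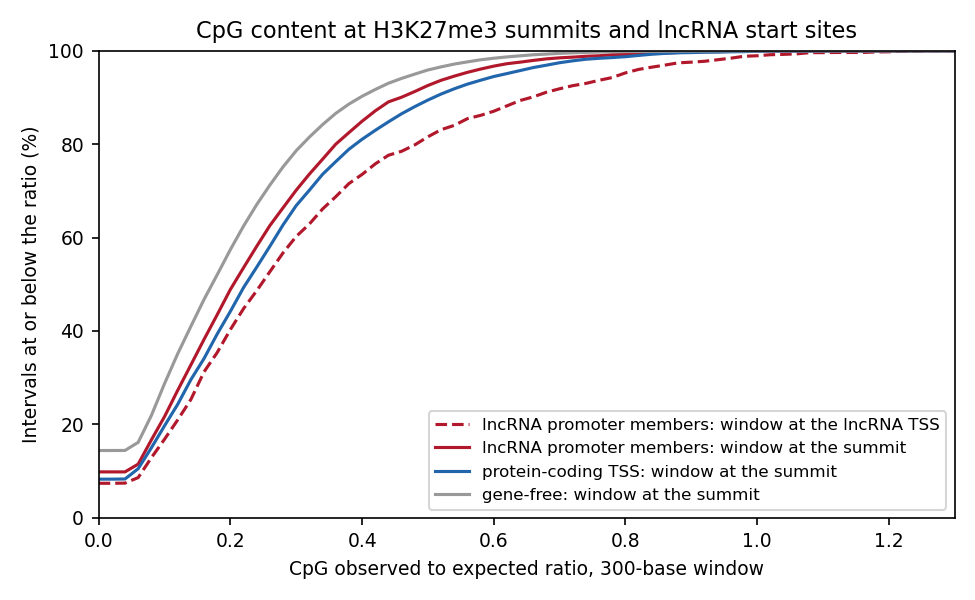
Cumulative share of intervals (y axis, %) by the ratio of observed to expected CpG in a window of 300 bases (x axis), for members at the WT summit and at the lncRNA TSS, and for protein-coding TSS and gene-free intervals at the summit. The curve of lncRNA TSS windows lies furthest to the right, with a median ratio of 0.245 against 0.205 at the summits of the same members.

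A copy of the summit window elsewhere in hg38, with at least 95% identity over at least 90% of its bases, was found for 185 members (6.84%). Reads of such windows may be placed at either copy, so their presence is uncertain. Of these, 49.2% had a peak in all 6 lists and 17.3% none in 232P, against 59.5% and 11.6% of the 2519 members without a copy.

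The width limit left out 56 intervals that met all other criteria. The widest member (chr6:1098056-1117992, 19937 bp, at ENSG00000286324 and LINC01622, 194 kb from FOXQ1) gave a fold enrichment of 6.32 and 6.94 in WT, 7.79 and 9.17 in 231K, and 5.85 and 6.23 in 232P. The narrowest interval left out (chr14:97748055-97768281, 20227 bp, at LINC02312) had 7.15 and 7.99 in WT, 6.86 and 10.0 in 231K, and 5.97 and 7.50 in 232P. Both had a peak in all 6 lists.

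The choice of the pair of lists that selects the intervals was turned around as well. With the 231K pair in place of WT, the same rule gave 2562 members, of which 74 (2.89%) had no peak in either WT list, beside 5.76% of all intervals chosen in this way. With the 232P pair it gave 1707 members, of which 18 (1.05%) had none in WT, beside 1.61%. In the other direction, 111 and 325 members of the WT pair had none in 231K and 232P. Members were thus missed in both directions, and the pair with the lower number of peaks selected fewer.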

How the data were processed

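The 6 H3K27me3 ChIP samples of SH-SY5Y cells had 1 peak list each, called per sample and not pooled, and the 6 inputs were not analysed here. Reads were trimmed by the authors, aligned to hg38 (BWA) and searched for peaks with MACS (version 2); the q-value threshold, the handling of duplicate reads and the control library are not given in the sources used here. Although the methods speak of a broadPeak run, the deposited lists have the 10 narrowPeak columns. Deposited for each peak are a fold enrichment, the ratio of summit height to local background after adding 1 to both, the summit's p-value and q-value as -log10, and a score that holds the latter times 10. All of these vary with depth and are not normalized between samples. The lists hold no read totals and no expression, so that no counting interval can be given and the cell type could not be checked by markers.

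Genes were taken from GENCODE release 44 (18866 lncRNA and 20046 protein-coding genes). A member was present in a list when a peak overlapped it by at least 1 bp. Comparison classes were intervals at protein-coding TSS (1 kb on each side), intervals within protein-coding genes away from a TSS, and intervals outside protein-coding genes (extended by 1 kb) without a lncRNA TSS. Height, background and relative depth were recovered from fold enrichment and p-value with the Poisson distribution, within 0.001 of the -log10 p-value. Exact permutation tests were run over samples, as peak lists hold no counts for a differential test. Copies of windows were searched with minimap2 (2.31-r1302). The genome used here is in upper case only, so that the planned share of repeats was not computed. Steps were tested on simulated data. Python 3.11.15, numpy 2.4.6, pandas 2.3.3, scipy 1.17.1 and matplotlib 3.10.9 were used.

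Named are the 8 highest ranking members by WT rank, the 4 highest ranking of each group missed in 1 line or in all Tau-KO lists, every member at a listed lncRNA or at a lncRNA of the study's list of upregulated genes, and the members at the width limit, with some members of listed lncRNAs given only by counts or left out; others are said to have been chosen after their values were seen. The members and lists were chosen with earlier results of these data known. The alternatives were thresholds on the q-value, equal numbers of peaks, scaling to equal depth, 50% cover, merging within 1 kb, a TSS window of 2.5 kb, protein-coding genes extended by 5 kb, no width limit, other selecting pairs, the replicate block and leaving out each list in turn. Results at some loci are not reported here.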

Additional observations from a re-analysis of the deposited data

How the results depend on the processing

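Members numbered 902 when the -log10 q-value had to reach 5, 1417 with WT peaks merged within 1 kb and 4304 with a TSS window of 2.5 kb, against 2704. Members with no peak in 231K numbered 29 with the stricter q-value, 434 when 50% cover was asked for and 212 with the wider TSS window, against 111. Those with none in 232P numbered 189 with the stricter q-value, 144 with equal numbers of peaks, 215 at equal depth, 1030 with 50% cover, 163 after merging and 603 with the wider window, against 325, and 18 when the 232P pair selected and absence was judged in WT. Those with none in any Tau-KO list numbered 23, 38 (equal numbers of peaks), 320 (50% cover) and 132 (wider window), against 72, where 23 is for the stricter q-value. Members in all 6 lists numbered 301 with the stricter q-value, 280 with 50% cover and 896 after merging, against 1591. As shares, members were missed less often than all intervals in each of these settings; in 232P the share was 9.01% at equal depth beside 14.5% of all intervals. Leaving out 1 list in turn gave 2704 to 4323 members, 111 to 613 with no peak in 231K, 325 to 1127 with none in 232P, 85 to 429 with none in the Tau-KO lists that remained, and 1594 to 2062 in all lists that remained. The highest of these are those without WT replicate 2, except that 2062 is without 232P replicate 1. Those with none in the Tau-KO lists that remained numbered 320 without WT replicate 1, 114 without 231K replicate 1 and 145 without 231K replicate 2. The number missed in 232P was 929 without 232P replicate 2, and that missed in 231K 313 without 231K replicate 2. As shares these were 34.4%, beside 52.6% of all intervals, and 11.6%, beside 20.6%. Whichever list was left out, the shares missed in 231K and in 232P lay below those of all intervals. Leaving out 1 list, the difference between 231K and 232P ranged from 209 to 805 members per list, that to gene-free intervals from 8.56 to 15.5 points and that to protein-coding TSS from -7.03 to -2.42 points. Under the other settings, these ranged from 154.5 (equal numbers of peaks) to 876 members (50% cover), from 9.19 to 15.0 points, and from -7.14 (50% cover) to -1.56 points (stricter q-value), with no change of direction. The causes of these moves were not tested, beyond the smaller or larger sets that follow from the settings.

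Samples with the same replicate number were not shown to be paired. The correlation of the difference between replicates was 0.0647 for WT and 231K, 0.122 for WT and 232P and 0.104 for 231K and 232P, over members that share libraries. The replicate numbers also separated the lists by median peak width, with 441, 440 and 335 bp in replicates 1 of WT, 231K and 232P against 682, 688 and 666 bp in replicates 2. With the replicate block, the difference of 437.5 members between 231K and 232P was 616 and 259 within the numbers, with p = 0.5 by an exact permutation of signs, the smallest value that 2 pairs can give. The protein-coding gene extension of 5 kb, the missing width limit and the q-value of 0.05 left all main counts within 1.5 times.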

Other observations

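Over intervals merged from all 6 lists, 4 of 4169 lncRNA promoter intervals (0.0959%) had a peak in all 4 Tau-KO lists and in no WT list, beside 147 of 219600 autosomal intervals (0.0669%). A peak in both WT lists and no Tau-KO list was found for 72 (1.73%), beside 4542 (2.07%). The rule asks for 4 lists in the first case and 2 in the second, so that the numbers are not comparable as they stand. The widest of the 4 was that at LINC00507 (chr12:127933721-127936121, 2401 bp, 331 kb from TMEM132C), with a fold enrichment of 4.69 and 5.84 in 231K, and 3.36 and 4.41 in 232P. LINC02914 (chr14:98708831-98710696, 561 kb from BCL11B) had 3.25 and 5.00 in 231K, and 3.98 and 5.30 in 232P. The other 2 were PDE4DIPP4 on chromosome 1, a pseudogene locus, with 2.87 to 3.98, and ENSG00000251652 on chromosome 4, with 2.77 to 3.53.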
